A study of Mus musculus with 15 samples.

Results

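Of 25197 H3K27Me3 regions on chromosomes 1 to 19 of mouse pancreatic islets, 2399 were called in HFD alone, that is, with a peak in islets of mice on a high-fat diet and with none in mice on regular chow (RD) or on the same high-fat diet with the AMPK activator O304 (HFD-O304). The regions were chosen by joining the peaks of the 3 deposited H3K27Me3 lists wherever they shared at least 1 bp and keeping those that held a peak of the HFD list only, so their H3K27Me3 values describe the choice and are not tested. They made up 9.52% of all joined regions and 17.4% of the 13827 regions with an HFD peak. For comparison, 2234 regions were called in RD alone, 6871 in HFD-O304 alone, 2215 in HFD and HFD-O304 but not RD, and 8598 in all 3 diets.

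The islets came from CBA males, whose diets started at 10 weeks of age and whose islets were taken at 20 weeks, with 0.8 mg of O304 per g of diet in the HFD-O304 group. About 600 islets were processed for each chromatin immunoprecipitation with sequencing (ChIP-seq), and islets are a mixture of cell types. The series has 15 samples, 2 for each of 2 histone marks in each of 3 diets and 3 inputs. The authors merged the 2 samples of a group before calling peaks, so each mark and diet has 1 list, no spread between replicates can be had, and no test between diets was made. Intervals given here are 95% Wilson intervals, which treat regions as independent and cover counting error only.

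Trimethylation of lysine 27 of histone H3 is laid down by Polycomb repressive complex 2 and accompanies repression of genes, most of all of developmental regulators with CpG-rich promoters. Acetylation of the same lysine, H3K27Ac, marks active promoters and enhancers. A single histone tail cannot carry both modifications at this residue, but a mixture of cells, or the 2 alleles of a cell, can give peaks of both marks at 1 place. In beta cells, Polycomb keeps progenitor genes and genes of other lineages silent.

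Sequences of the HFD-alone regions were of very different kinds. The strongest region of all, the 3 strongest at promoters that were under 50% repeat-masked and the strongest region with H3K27Ac in RD but not in HFD show this, and the promoter region of Cldn1 is also the strongest with H3K27Ac in HFD but not in RD. Each is given as the central 300 bases of the plus strand of the C57BL/6J reference (GRCm38, RefSeq), with CG dinucleotides in capitals, although the mice were CBA.
Intergenic, nearest gene Atp11b, chr3:35224969-35225268: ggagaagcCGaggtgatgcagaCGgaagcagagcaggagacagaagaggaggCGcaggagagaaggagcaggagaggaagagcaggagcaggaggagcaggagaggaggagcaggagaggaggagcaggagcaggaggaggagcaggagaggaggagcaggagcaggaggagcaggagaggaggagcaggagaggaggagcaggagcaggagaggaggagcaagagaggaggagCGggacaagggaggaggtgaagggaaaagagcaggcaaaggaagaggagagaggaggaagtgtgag
Intron of Chn1, chr2:73686575-73686874: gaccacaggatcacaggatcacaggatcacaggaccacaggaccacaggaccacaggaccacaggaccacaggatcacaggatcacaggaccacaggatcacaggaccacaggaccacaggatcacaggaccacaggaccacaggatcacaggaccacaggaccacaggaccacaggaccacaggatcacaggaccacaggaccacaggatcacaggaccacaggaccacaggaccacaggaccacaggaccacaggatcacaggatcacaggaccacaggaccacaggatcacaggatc
Promoter of Cldn1, chr16:26371257-26371556: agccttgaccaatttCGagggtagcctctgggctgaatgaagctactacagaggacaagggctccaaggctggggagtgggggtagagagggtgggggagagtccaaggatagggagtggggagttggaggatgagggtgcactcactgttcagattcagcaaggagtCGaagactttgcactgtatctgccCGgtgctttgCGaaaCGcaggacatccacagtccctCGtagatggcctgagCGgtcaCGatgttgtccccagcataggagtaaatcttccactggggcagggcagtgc
Promoter of Rasgef1a, chr6:118011415-118011714: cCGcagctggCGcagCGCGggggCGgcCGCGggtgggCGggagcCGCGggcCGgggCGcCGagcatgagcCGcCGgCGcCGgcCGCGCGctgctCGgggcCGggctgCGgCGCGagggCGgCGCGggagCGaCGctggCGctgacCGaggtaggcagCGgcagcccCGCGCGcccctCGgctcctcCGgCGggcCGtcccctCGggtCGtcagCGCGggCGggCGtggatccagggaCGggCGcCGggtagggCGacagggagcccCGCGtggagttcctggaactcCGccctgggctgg
Promoter of Marcksl1, chr4:129514313-129514612: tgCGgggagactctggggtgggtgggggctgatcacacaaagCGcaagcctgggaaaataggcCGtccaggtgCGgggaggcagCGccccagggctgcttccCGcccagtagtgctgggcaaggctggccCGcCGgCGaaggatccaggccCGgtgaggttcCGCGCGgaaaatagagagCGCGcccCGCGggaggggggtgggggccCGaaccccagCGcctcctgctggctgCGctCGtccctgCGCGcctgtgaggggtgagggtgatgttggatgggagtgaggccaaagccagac
The Rasgef1a window held 53 CG dinucleotides at a GC content of 83.0%, and the Marcksl1 window held 23 at 70.0%. The Cldn1 window held 8 CG dinucleotides at 56.7% GC. The window near Atp11b is a GA-rich low-complexity stretch with 4 CG dinucleotides and 11 matches to GAGAG or its complement, and the Chn1 window, a tandem array of short units, held 0 CG dinucleotides.

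The HFD-alone regions were short and weak, as were the other classes called in 1 diet. Each consisted of exactly 1 HFD peak, with a median length of 353 bp (range 223 to 2364) against 891 bp for regions of HFD and HFD-O304 only and 1120 bp for regions of all 3 diets, which are unions of peaks of several lists and are longer by construction. The median length was 318 bp for RD alone and 397 bp for HFD-O304 alone, with median −log10 q values of 2.93 and 2.91 in their own lists. In the HFD-alone regions, the median fold enrichment over the uniform background of the list was 2.93 (range 2.76 to 8.34) and the median −log10 q was 2.89 (range 2.26 to 40.9). For regions in all 3 diets, the medians of the highest HFD fold and −log10 q of each region were 3.36 and 4.64. Such a region can hold several HFD peaks, so taking the highest can raise its values. A −log10 q of at least 5 was reached by 144 of the 2399 and a value of at least 10 by 8. They covered 1.15 Mb of the 14.9 Mb of HFD peaks, or 7.75% of the bases.

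**Figure D1:**
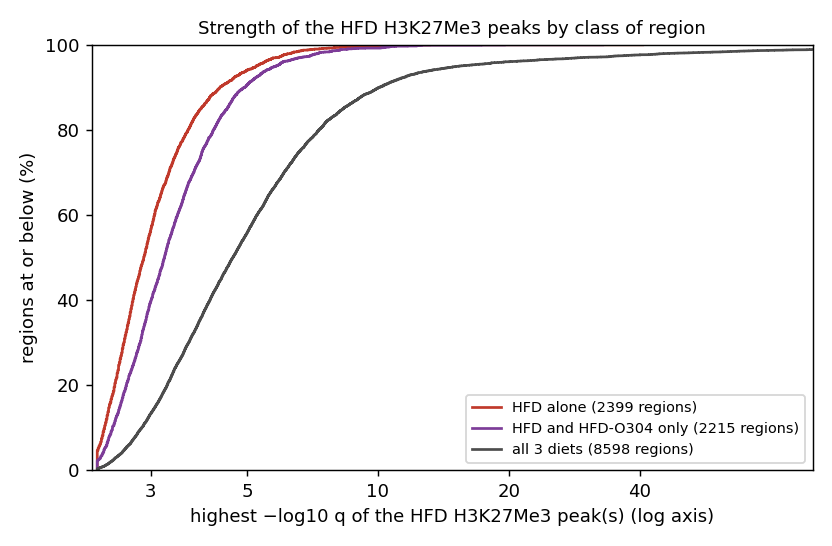
Cumulative share of regions (vertical axis, %) against the highest −log10 q of their HFD H3K27Me3 peaks (horizontal log axis, drawn to 100) for regions called in HFD alone, in HFD and HFD-O304 only, and in all 3 diets. The HFD-alone curve lies to the left, with a median of 2.89 against 3.23 and 4.64.

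The share of HFD regions that were called in no other diet was lower for stronger peaks. Of regions whose highest HFD −log10 q lay from 2 to 3, 37.4% were HFD-alone (1351 of 3613), compared with 15.1% from 3 to 5, 4.08% from 5 to 10 and 0.878% at 10 or more (8 of 911). Values at the edge of the rule were alike on both sides. Just inside, a region at chr3:14670913-14671158 with an HFD fold of 2.85 lay 1 bp from an RD peak with a fold of 2.57, and a region at a promoter of Hs3st1, a heparan sulfate sulfotransferase, with an HFD fold of 2.96 lay 3 bp from an RD peak of 2.75. Just outside, a region at chr4:107666173-107666524 with an HFD fold of 2.87 shared 3 bp with an HFD-O304 peak of 3.04, and an intronic region of Pou2f2 with a fold of 2.94 shared 4 bp with an HFD-O304 peak of 2.77.

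The lists differed in depth. The headers give 54166902 kept H3K27Me3 fragments for HFD, 57324419 for HFD-O304 and 74870300 for RD, and the lowest folds listed were 2.76, 2.69 and 2.53. Duplicates made up 55.0%, 56.9% and 45.7% of the fragments. A missing peak means that the region did not pass in that list, since the lists give no signal outside peaks, and the part of depth and duplicates in the choice of regions was not tested. As a check of the tissue, H3K27Ac peaks lay at promoters of 6, 7 and 6 of 8 beta cell markers in RD, HFD and HFD-O304, with 1 of 3 alpha cell and 1 of 6 acinar markers in each diet and 0 of 4 endothelial and 0 of 5 leukocyte markers. None of the 3 delta cell markers had one, and 1 of the 4 duct markers had one in RD and HFD against 3 in HFD-O304.

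Position in the genome was not used by the rule. Of the 2399 regions, 254 overlapped the 1000 bp either side of a protein-coding start site (10.6%, 9.42 to 11.9), 67 lay in exons (2.79%), 597 in introns (24.9%) and 1481 between genes (61.7%). Without peaks that were at least 50% repeat-masked the promoter share was 21.8%, and with a −log10 q of at least 5 it was 4.86%. Over all joined regions, 11.2% were at promoters, 1.90% in exons, 23.3% in introns and 63.6% between genes. These shares over all joined regions include repeat-rich peaks and peaks of every strength. The promoter share was 8.19% for RD alone, 5.85% for HFD-O304 alone, 15.6% for all 3 diets and 20.0% for regions of HFD and HFD-O304 only. The intervals of HFD alone and of the regions that HFD shared with HFD-O304 do not overlap. The shared regions are unions of peaks with a median length of 891 bp against 353 bp. Any overlap with the promoter window counted, so longer regions meet it more readily, and the part of length in these shares was not tested. The median distance to the nearest start site was 35431 bp.

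CpG-island-like sequence was about as common in HFD-alone regions as in the other classes called in 1 diet. It was less common than in regions of HFD and HFD-O304 only or of all 3 diets. A CpG-island-like stretch, here any 200 bp with over 50% GC and a CpG observed-over-expected ratio over 0.6, was found in 545 of them (22.7%) against 25.0% for RD alone, 21.6% for HFD-O304 alone, 55.6% for HFD and HFD-O304 only and 70.6% for all 3 diets. Longer regions have more windows in which to find such a stretch. The motif CGCG, which is its own complement, was therefore searched in the 300 bases centred on every region. This window reaches past the ends of regions under 300 bp, and 858 of the 2399 HFD-alone regions were up to 300 bp long. CGCG was found in the window of 18.7% (17.2 to 20.3) of HFD-alone regions, 20.2% of RD-alone regions and 15.6% (14.7 to 16.4) of HFD-O304-alone regions. The share was 30.4% for HFD and HFD-O304 only and 32.0% for all 3 diets, with 24.0% over all regions and 3.25% of 23959 genome windows of that length. GAGAG or its complement was in the window of 55.3% (53.3 to 57.3) of HFD-alone regions, 58.9% of all joined regions and 53.5% of genome windows. The repeat of TTAGGG, the telomere unit, at least 2 times in a row was found in 0 of 2399, which allows a share of up to 0.125%, next to 0.107% of all joined regions and 0.0209% of genome windows, both within that limit.

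Repeats filled many of the regions. Of the 2399, 1321 (55.1%, 53.1 to 57.0) were at least 50% repeat-masked in the reference, against 65.1% of all joined regions, 62.6% for RD alone, 69.8% for HFD-O304 alone, 50.4% for HFD and HFD-O304 only, 65.8% for all 3 diets and 25.9% of genome windows. At least 50% of the region was repeat-masked in 50.7% of HFD-alone regions with −log10 q from 2 to 3 and in 72.1% of those from 5 to 10, against 58.9% and 68.1% of all HFD regions of that strength, while the share at promoters was 11.0% and 5.15%, against 12.7% and 14.7%. Reads from repeats may be placed at any of several copies, and the part of this in the calls was not tested.

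**Figure D2:**
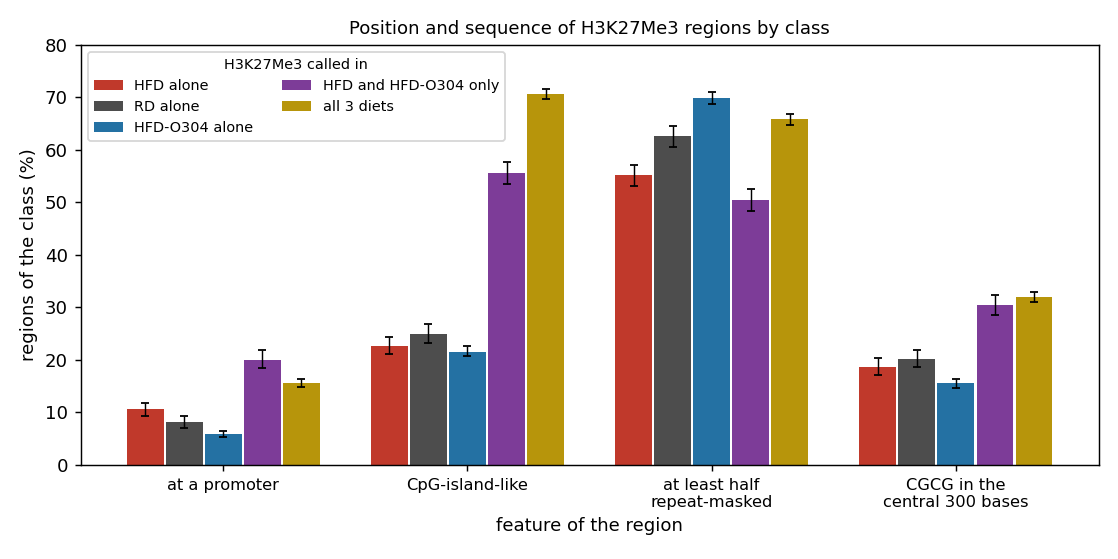
Share of regions (%) at promoters, with a CpG-island-like stretch, at least 50% repeat-masked, and with CGCG in the 300 bases centred on the region, for 5 classes of H3K27Me3 region. Bars are shares and lines are 95% Wilson intervals; CpG-island-like sequence was in 22.7% of HFD-alone regions and in 70.6% of regions of all 3 diets.

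The 10 strongest HFD-alone regions were not at promoters. Of these, 5 were in introns and 5 were intergenic, 7 were at least 50% repeat-masked, and 0 had a CpG-island-like stretch. The strongest, at chr3:35224956-35225283, had a fold of 8.34, its −log10 q was 40.9, and it lay 529 kb from the nearest start site, that of Atp11b. An intron of Cldn18, which encodes a claudin of tight junctions, held the next at a fold of 4.84, and an intron of Fhit, a tumour suppressor gene at a fragile site, held the third at 4.88. In 6 of the 10 no diet had an H3K27Ac peak. The other 4 had H3K27Ac peaks in every diet, and all 4 were fully repeat-masked. In an intron of Arhgap24 the H3K27Me3 fold was 4.62 in HFD and the H3K27Ac folds of RD, HFD and HFD-O304 were 5.91, 4.53 and 4.68.

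At promoters that were under 50% repeat-masked, the strongest HFD-alone regions reached lower values. Cldn1, which encodes another claudin, led with a fold of 3.66, at a −log10 q of 5.93. Rasgef1a, a guanine nucleotide exchange factor for Ras-family proteins, had a fold of 3.56, and Marcksl1, which encodes an actin-binding relative of MARCKS, had 3.57. Aqp5, a water channel of secretory glands, had a region of 2107 bp at a fold of 3.54. The promoter regions did not all stand alone. An HFD-O304 peak began 339 bp from the Rasgef1a region and 207 bp from the Marcksl1 region. An RD peak lay 164 bp from the Aqp5 region, and another lay 35 bp from the region at the promoter of Gm13889. At Cldn1 the nearest peaks of the other diets were at least 100 kb away. The other promoters among the 10 were those of Gm13889 (3.54), Il12rb2, a subunit of the interleukin-12 receptor (3.53), Sema3a, a secreted axon guidance protein (3.48), Kbtbd11 (3.43), the kinesin gene Kif21b (3.40) and the histone genes Hist1h2ad, Hist1h2bf and Hist1h3d (3.38), where near-identical gene copies make the placing of reads uncertain. Of the 10, 8 had a CpG-island-like stretch.

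The 5 longest regions were in an intron of Grap2, an adaptor protein of T cell signalling (2364 bp), at the promoter of Aqp5 (2107 bp), near Apol11b (2048 bp), at a promoter of Dab1, an adaptor of reelin signalling (1966 bp), and 10.4 kb from Evx2, a homeobox gene beside the Hoxd cluster (1892 bp). Their folds lay between 2.87 and 3.54.

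The 254 promoter regions touched 257 of 20780 protein-coding genes (1.24%). At 196 of these genes the HFD list was the only one with a peak anywhere at the promoter. Gene lists for islet biology were set beside that share of all genes. None of 28 genes of beta cell identity and function, none of 13 dedifferentiation and progenitor genes, none of 25 genes of the unfolded protein response and none of 22 genes of AMPK subunits and regulators had an HFD-alone region at the promoter. Any HFD peak was at 1, 7, 0 and 0 promoters of these lists in that order. Where no promoter had an HFD peak, no HFD-alone region was possible. At the 1.24% of all genes, lists of these sizes can hold none. Among 203 developmental transcription factors of other tissues, 186 had an HFD peak at the promoter and 165 were marked in all 3 diets, and 4 (1.97%) had an HFD-alone region, namely Pou4f1, Sox1, T and Tfap2a. Developmental signalling genes had such a region at 7 of 121 promoters (5.79%, 2.83 to 11.5) and neuronal channels and receptors at 7 of 139 (5.04%, 2.46 to 10.0). In these lists H3K27Me3 peaks of HFD were at 81 and 83 promoters (66.9% and 59.7%), against 2079 (10.0%) of all 20780 genes. Among promoters with an HFD peak, HFD-alone regions were thus at 7 of 81 and 7 of 83, against 257 of 2079 over all genes. In the same 2 lists, HFD-O304 peaks were at 82 and 84 promoters and RD peaks at 56 and 58. Over all genes, HFD-O304 peaks were at 2204 promoters and RD peaks at 1715. Regions of HFD-O304 alone were at 9 and 9 promoters of these 2 lists, and regions of RD alone at 0 and 3. For the developmental transcription factors the counts were 7 and 0, and for all genes 399 and 199. Of 29 genes that are normally kept off in beta cells, so-called disallowed genes, 3 had an HFD-alone region at the promoter. Of 12 genes of other islet endocrine cells 2 had one, and of 30 cell cycle genes 1. Any HFD peak was at 17, 5 and 3 promoters of these lists.

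In all, 25 listed genes had an HFD-alone region at the promoter, and their folds lay between 2.79 and 3.48. At 14 of them no other diet had a peak at the promoter. Among these 14, Sox1, a transcription factor of neural progenitors, had a fold of 3.19 in a region 19 bp from its start site by the region's middle, 1.76 kb from the nearest RD peak and 2.76 kb from the nearest HFD-O304 peak. T, which encodes brachyury, the regulator of mesoderm, had 2.80, at 2.82 kb from an HFD-O304 peak. Rest, a repressor of neuronal genes and itself disallowed in beta cells, had 2.94 over 1177 bp. Yap1, the co-activator of the Hippo pathway, had 3.16, and Oat, ornithine aminotransferase, had 2.80. The Wnt ligand gene Wnt8b had 2.89, at 1.43 kb from an HFD-O304 peak, the Wnt receptor gene Fzd9 had 3.14, the potassium channel genes Kcng3 and Kcna6 had 3.34 and 3.01, and the dopamine receptor gene Drd5 had 2.79. Cacng7, an auxiliary calcium channel subunit, had 3.05, and Sema3a had 3.48 as given above.

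At the other 11 listed genes, RD or HFD-O304 also had a peak at the promoter or at another start site of the gene. Hhex, a transcription factor of delta cells, had an HFD-alone region at a fold of 3.23 that lay 1.56 kb from the nearest RD peak and 1.44 kb from the nearest HFD-O304 peak. The region at Ghsr, the ghrelin receptor gene, had a fold of 2.96 and lay 1.19 kb and 0.652 kb from them. Pou4f1 (3.04), Tfap2a (2.83), Cacna1e (2.98), Cdk6 (2.95) and Bdnf (2.91) had RD and HFD-O304 peaks at start sites of the gene, while Wnt7b (3.06), Pdgfb (2.93), Dkk2 (2.89) and Adrb3 (2.84) had HFD-O304 peaks and no RD peak.

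**Figure D3:**
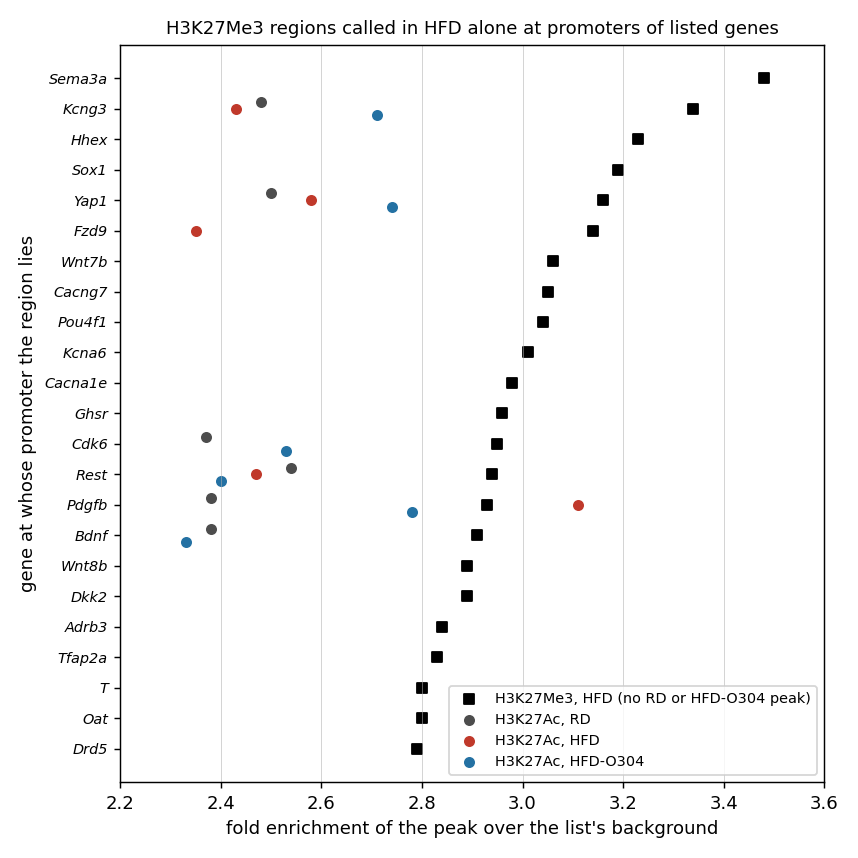
Fold enrichment (horizontal axis) of the HFD H3K27Me3 peak (squares) and of any H3K27Ac peak over the same region in RD, HFD and HFD-O304 (circles) for 23 of the listed genes with an HFD-alone region at the promoter. H3K27Me3 folds lie between 2.79 and 3.48, and 16 of the 23 regions have no H3K27Ac peak in any diet.

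H3K27Ac was measured in separate libraries and was not used by the rule. Of the HFD-alone regions, 237 held an H3K27Ac peak in RD (9.88%, 8.75 to 11.1), 291 in HFD (12.1%, 10.9 to 13.5) and 276 in HFD-O304 (11.5%, 10.3 to 12.8). Over all joined H3K27Me3 regions the shares were 12.5%, 19% and 15.3%, and over regions of all 3 diets 25.6%, 38.5% and 31.2%. Any shared base counted, and regions of all 3 diets are longer (median 1120 bp against 353 bp) and stronger. With HFD −log10 q from 2 to 3, H3K27Ac in HFD was at 8.14% of HFD-alone regions and 11.7% of all HFD regions. From 5 to 10 it was at 27.2% and 44.2%. The part of length was not tested. RD-alone regions had 10.7%, 15.4% and 13.0%, and HFD-O304-alone regions had 1.22%, 2.65% and 1.73%. The H3K27Ac lists of RD, HFD and HFD-O304 held 15847, 21021 and 19787 peaks on these chromosomes, in the same order as the shares. No H3K27Ac peak of any diet was found at 2027 of the HFD-alone regions (84.5%, against 76.3% of all joined regions), and 172 (7.17%, against 8.75%) had one in every diet.

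The overlap differed with the position of the region. At promoters under 50% repeat-masked, 58 of 246 regions had H3K27Ac in RD (23.6%, 18.7 to 29.3), 93 in HFD (37.8%, 32.0 to 44.0) and 88 in HFD-O304 (35.8%, 30.0 to 41.9). Intergenic regions under 50% repeat-masked had 2.06%, 3.92% and 2.89% of 485, and intergenic regions at least 50% repeat-masked had 12.3%, 12.0% and 11.5% of 996. These shares by position and repeat content are of HFD-alone regions only. Over all joined promoter regions, whatever their repeat content, the shares were 18.6%, 31.6% and 29.1%. Promoter regions with a CpG-island-like stretch carried H3K27Ac in HFD at 82 of 173 (47.4%), and those without at 11 of 81 (13.6%). Over all joined promoter regions with such a stretch it was 769 of 2326. Among all promoter regions of a class, the HFD share was 36.6% (30.9 to 42.7) for HFD alone, 34.8% for all 3 diets, 61.2% (54.0 to 68.0) for RD alone, 18.2% (14.9 to 22.1) for HFD and HFD-O304 only and 13.2% for HFD-O304 alone.

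**Figure D4:**
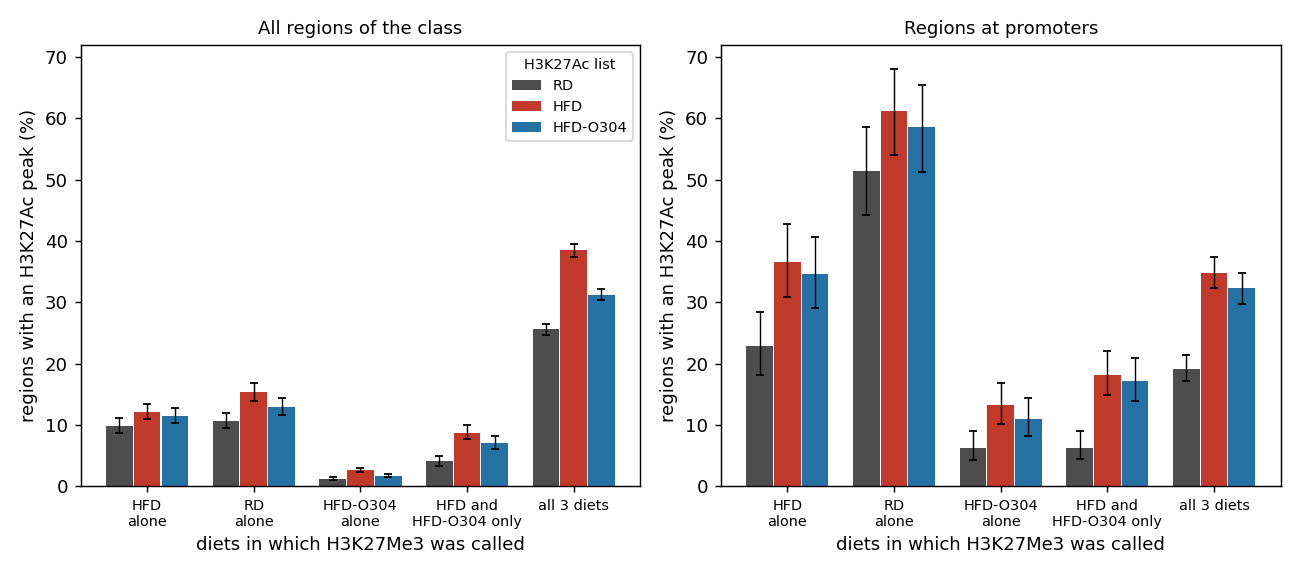
Share of H3K27Me3 regions (%) that overlap an H3K27Ac peak of RD, HFD or HFD-O304, for 5 classes of region, over all regions (left) and over regions at promoters (right). Bars are shares and lines are 95% Wilson intervals; at promoters the HFD-alone class shows 22.8%, 36.6% and 34.6%.

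H3K27Ac was called in RD and not in HFD at 43 of the 2399 regions (1.79%), against 2.05% of all joined regions, and in HFD and not in RD at 97 (4.04%), against 2166 of all 25197. The pattern opposite to that of H3K27Me3, with H3K27Ac in RD and HFD-O304 and not in HFD, was found at 19 (0.792%, 0.508 to 1.23), against 0.742% of all joined regions. Of these 19, 13 were at least 50% repeat-masked and 5 were at promoters. These 5, named after their values were seen, were those of Gadd45b, a stress-induced gene of the DNA damage response (H3K27Me3 fold in HFD 3.05, H3K27Ac fold 2.76 in RD and 2.80 in HFD-O304), Cdk6, a cyclin-dependent kinase of the G1 phase (2.95, with 2.37 and 2.53), Prrg4 (2.91, with 2.44 and 2.60), Bdnf, a neurotrophin (2.91, with 2.38 and 2.33), and the adhesion molecule gene Mcam (2.84, with 2.37 and 2.30). The lowest H3K27Ac folds listed were 2.28, 2.17 and 2.25 for RD, HFD and HFD-O304, so most of these peaks were close to the limit of their lists.

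The 5 strongest regions with H3K27Ac in RD and none in HFD were the intron of Chn1 (H3K27Me3 fold 3.92) and 4 intergenic regions nearest to Qrsl1 (3.59), Reg3g (3.50), Insig1 (3.42) and Fgf9 (3.38), and each was 100% repeat-masked. The 5 strongest with H3K27Ac in HFD and none in RD were the promoters of Cldn1, Marcksl1 and Gm13889 and introns of Lsamp (3.65, 97.0% repeat-masked) and Rmi2 (3.51, 34.2%), and the promoter regions were 8.22% to 11.7% repeat-masked. At Marcksl1 and Gm13889, H3K27Ac was also called in HFD-O304, with folds of 2.51 and 2.79 next to 2.42 and 2.72 in HFD. Of the 25 listed genes, 6 had H3K27Ac in RD and 5 in HFD over the region. In the order RD, HFD and HFD-O304, the H3K27Ac folds at Rest were 2.54, 2.47 and 2.40, at Yap1 2.50, 2.58 and 2.74, and at Pdgfb 2.38, 3.11 and 2.78.

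Many HFD-alone regions lay beside H3K27Me3 of another diet. The nearest peak of RD or HFD-O304 was a median of 9451 bp away, 12.7% of the regions lay within 1 kb of such a peak and 1221 (50.9%, 48.9 to 52.9) within 10 kb. For RD-alone regions, measured to HFD and HFD-O304 peaks, the share within 10 kb was 41.9%, and for HFD-O304-alone regions, measured to RD and HFD peaks, it was 43.7%. The lists they were measured to hold different numbers of peaks. Regions called in all 3 diets were within 10 kb of 585 HFD-alone regions (24.4%). Of the promoter regions, 35.4% (29.8 to 41.5) lay within 10 kb of a peak of another diet.

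HFD-alone regions were spread over the genome and clustered at few places. Of windows of 100 kb, 1893 held 1 of them, 169 held 2, 44 held 3 and 9 held 4. A window with 4 lies at Tfap2b, which encodes a transcription factor of neural crest and kidney. In this window HFD had peaks in 8 regions, HFD-O304 in 4 and RD in 1. The region at the start of the gene was called in all 3 diets, with H3K27Me3 folds of 2.81 (RD), 3.61 (HFD) and 3.21 (HFD-O304). Downstream, HFD-alone regions of 1864, 343 and 856 bp with folds of 3.11, 3.33 and 2.89 alternated with regions of HFD and HFD-O304 only, and a further one of 1685 bp at 2.80 lay 72588 bp from the nearest start site and was 100% repeat-masked. None of the 8 regions had an H3K27Ac peak.

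**Figure D5:**
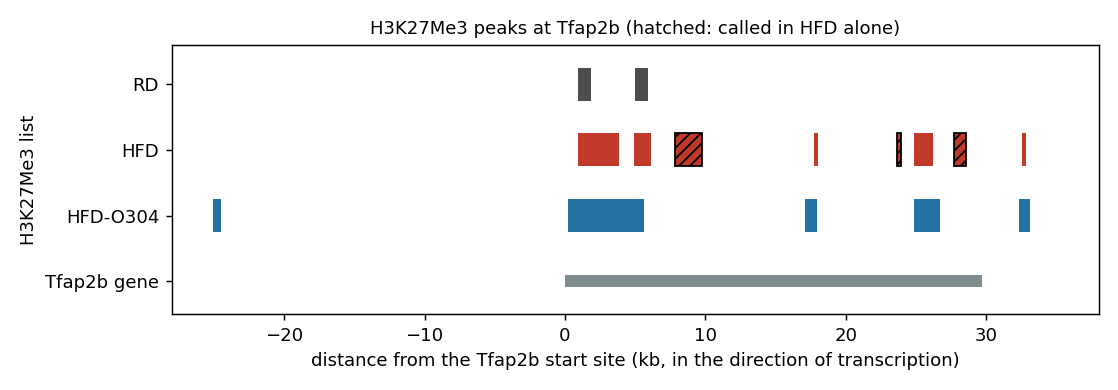
H3K27Me3 peaks of RD, HFD and HFD-O304 along Tfap2b, as distance from its start site (horizontal axis, kb), with the gene drawn as a grey bar. Hatched HFD peaks, at 7.87 to 9.73, 23.62 to 23.96 and 27.74 to 28.59 kb, have no counterpart in the other lists.

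A window on chromosome 5 whose 4 HFD-alone regions lie between Msx1 and Stx18 had 0 regions of RD, 6 of HFD and 3 of HFD-O304. In a gene-poor window on chromosome 2, nearest to Cdh26, the HFD-alone regions had folds from 2.80 to 2.95, and 5 of 9 regions there held an HFD-O304 peak. A window on chromosome 5 holds Gm21663 and related predicted genes, where repeated gene copies make the placing of reads uncertain.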

How the data were processed

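H3K27Ac and H3K27Me3 ChIP-seq of islets was used as 6 deposited peak lists, 1 per mark and diet. The authors mapped reads to GRCm38 with bowtie2 (Ensembl release 96), merged both replicates of a group and ran MACS 2.1.2 in broad mode. Its settings, per the file headers, were paired fragments, a q cutoff of 0.01 for either kind of region and an effective genome size of 1.87e+09. At most 1 fragment was kept per position, with no control and no local background. The paper's methods list a looser cutoff among the program options, beside an FDR limit of 0.01 for peaks, and the headers were followed here. Per the file headers, pileup is the coverage signal, −log10 q is against the uniform background, and fold enrichment is the ratio of pileup plus 1 to background plus 1. The 3 inputs are not analysed here.

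Peaks of chromosomes 1 to 19 were joined at an overlap of at least 1 bp. No peak passed the end of a GRCm38 chromosome. Start sites, exons and genes were those of protein-coding genes of GENCODE mouse release 21, and sequence and repeat masking came from the RefSeq GRCm38 reference. A region at a start site ± 1000 bp was a promoter region; otherwise its middle set exon, intron or intergenic. The joining was checked on 10000 simulated regions of 7 known classes, and all 7 counts were recovered. Python 3.11.15, numpy 2.4.6, scipy 1.17.1, pysam 0.24.0 and samtools 1.23.1 were used.

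Named regions were the 10 strongest by −log10 q, the 10 strongest at promoters under 50% repeat-masked, the 5 strongest with H3K27Ac in RD and none in HFD and the 5 of the converse, the 5 longest, those at promoters of listed genes, 5 windows of 100 kb with the most regions (ties in genome order), and the values at the edge of the rule. Some items that this rule names are not reported here. The regions and gene lists were chosen with earlier results of these data known. Kept fragments were 54166902 to 74870300 for H3K27Me3 and 83773042 to 95218072 for H3K27Ac. Alternatives were the overlap, joining distance, strength, fold and list-size cutoffs, removal of repeat-rich peaks and the promoter window.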

Additional observations from a re-analysis of the deposited data

How the results depend on the processing

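The number of HFD-alone regions, 2399, went to 144 when the HFD peak needed a −log10 q of at least 5 and to 1127 without repeat-rich peaks, and stayed within 1.5 times it under the other 5 joining or cutoff settings (1718 to 3213). The promoter share, 10.6%, was 4.86% with the −log10 q of at least 5, 15.1% with a −log10 q of at least 3 in all lists, 12.3% with a common fold cutoff of 2.76, 13.2% with lists of equal size (14254 peaks), 21.8% without repeat-rich peaks, and 14.8% and 8.80% with promoter windows of 2500 and 500 bp. The share with H3K27Ac in HFD, 12.1%, was 28.5% at a −log10 q of at least 5 and 16.4% at 3 or more in all lists, and the share at least 50% repeat-masked, 55.1%, was 72.2% at 5 or more. Of 44 further values for the other 6 results, 29 lay outside the interval of the main value. An overlap of at least 50% gave 2800 regions and joining over 1000 bp gave 2080. No paired analysis was possible because each list pools its 2 replicates, and leaving out a replicate was likewise not possible.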

Other observations

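Outside chromosomes 1 to 19, HFD-alone regions joined in the same way made up 103 of 1345 H3K27Me3 regions on the X chromosome (7.66%, 95% Wilson interval 6.35 to 9.20), 27 of 259 on the Y chromosome (10.4%, 7.26 to 14.7) and 28 of 459 on other sequences (6.10%, 4.25 to 8.68), next to 9.52% (9.16 to 9.89) on chromosomes 1 to 19.

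Over all protein-coding genes, 1.24% had an HFD-alone region at the promoter and 10.0% had any HFD peak there. Of the families below, any HFD peak was at 7.37% of zinc finger, 0.532% of olfactory receptor and 0% of vomeronasal receptor promoters. It was at 3.57% of protocadherin and 14.0% of solute carrier promoters. Among 407 zinc finger genes with symbols starting Zfp or Zscan there were 2 (0.491%, 0.135 to 1.77; Zfp385a and Zfp819), among 1127 olfactory receptor genes 2 (0.177%, 0.0487 to 0.645; Olfr285 and Olfr8), among 328 vomeronasal receptor genes 0, among 56 protocadherin genes 1 (1.79%, 0.316 to 9.45; Pcdha11) and among 358 solute carrier genes 3 (0.838%, 0.285 to 2.43; Slc43a3, Slc5a1, which encodes a sodium-glucose cotransporter, and Slc6a20a).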
